A study of Mus musculus with 12 samples.

Results

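The E-protein genes Tcf3, Tcf4 and Tcf12, the ID genes Id1, Id2 and Id3, and the ZEB genes Zeb1 and Zeb2 were followed through the accessible chromatin of mouse blood cells. A peak was taken as belonging to one of these genes when the deposited annotation gave the gene as its nearest. This rule found 111 of 84243 peaks, with 54 peaks at the 3 E-protein genes, 19 at the 3 ID genes and 38 at the 2 ZEB genes. All 8 genes had at least 1 peak, among 19040 genes that had any.

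The peaks came from ATAC-seq, in which a transposase inserts sequencing adapters into exposed DNA. The cells were sorted from wild-type C57BL/6 mice aged 8 to 12 weeks, untreated, and 2 replicates were made for each of 6 cell types: hematopoietic stem cells (HSC), megakaryocyte progenitors (MkP), erythroid progenitors (EP), granulocyte/macrophages (GM), B cells and T cells. T cells carry a thymus label and the other populations a bone marrow label. Each population was defined by surface antigens alone, so a gate such as Gr1+ Mac1+ for GM or CD43- B220+ for B cells may hold several stages of 1 lineage. The authors pooled the peaks of all 12 samples into 1 master peak-list, which names neither the sample nor the cell type of a peak and holds 0 columns of values per sample. A peak therefore marks a region called open in at least 1 of the populations, and no level, replicate error, depth or difference between cell types can be given. The cell types could not be checked against marker genes for the same reason.

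E proteins are basic helix-loop-helix transcription factors that bind DNA as dimers at E-boxes, short palindrome-like sites of the form CANNTG. In blood they drive B and T cell development and partner with tissue-restricted factors such as TAL1. ID proteins carry the helix-loop-helix part but lack the basic part that touches DNA, so they pair with E proteins and hold them off their sites. ZEB proteins are zinc finger and homeodomain repressors that bind E-boxes of the CAGGTG kind, which E proteins also use. E proteins and ZEB proteins thus share sites as activators and competing repressors, and ID proteins act on the E proteins rather than on DNA.

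The peaks richest in E-boxes are shown first, because they are the regions where the sites of E and ZEB proteins lie within the surroundings of these genes. For each gene, the peak with the most CAGCTG and CAGGTG strings was taken, and for 6 of the genes 300 bases of it are printed from the plus strand of mm10 (the GRCm38 assembly). Capitals mark CAGCTG as well as CAGGTG, which reads as CACCTG where it lies on the minus strand. The Id1 peak, chr2:152734950-152735448, lay 1052 bp upstream of the transcription start site (TSS), and the bases shown are chr2:152735049-152735348. The Id2 peak, chr12:25098641-25099139, lay 2798 bp upstream, with chr12:25098744-25099043 shown. The Id3 peak, chr4:136112279-136112777, lay 31294 bp upstream, with chr4:136112378-136112677 shown. The Tcf3 peak, chr10:80446148-80446646, lay 12744 bp upstream, with chr10:80446247-80446546 shown. The Tcf12 peak, chr9:72192026-72192524, lay 80456 bp upstream, with chr9:72192051-72192350 shown. The Zeb2 peak, chr2:45264666-45265164, lay 147473 bp upstream, with chr2:45264765-45265064 shown. All 6 regions were intergenic. Each ID peak held 4 strings over its whole width, against 3 in the Zeb2 and Tcf12 peaks and 2 in the Tcf3 peak. The richest peaks of Zeb1 and Tcf4, which are not printed, held 3 and 2.
Id1 peak: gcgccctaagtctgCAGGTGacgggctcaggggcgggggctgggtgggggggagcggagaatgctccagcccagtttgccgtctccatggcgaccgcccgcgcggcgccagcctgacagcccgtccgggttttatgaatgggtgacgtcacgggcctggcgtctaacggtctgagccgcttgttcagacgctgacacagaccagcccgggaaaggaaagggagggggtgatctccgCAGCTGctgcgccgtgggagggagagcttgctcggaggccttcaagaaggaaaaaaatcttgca
Id2 peak: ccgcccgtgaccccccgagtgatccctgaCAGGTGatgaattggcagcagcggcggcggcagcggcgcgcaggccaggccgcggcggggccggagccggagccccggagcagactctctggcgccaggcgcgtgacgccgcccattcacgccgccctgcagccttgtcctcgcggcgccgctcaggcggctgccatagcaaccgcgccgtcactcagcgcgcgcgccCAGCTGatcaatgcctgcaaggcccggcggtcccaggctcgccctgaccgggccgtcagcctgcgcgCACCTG
Id3 peak: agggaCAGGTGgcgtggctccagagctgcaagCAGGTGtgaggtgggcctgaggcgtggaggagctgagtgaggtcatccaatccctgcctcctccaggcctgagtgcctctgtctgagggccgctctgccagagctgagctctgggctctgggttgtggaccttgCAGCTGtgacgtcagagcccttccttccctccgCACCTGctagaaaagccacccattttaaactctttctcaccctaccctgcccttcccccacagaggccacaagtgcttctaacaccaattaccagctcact
Tcf3 peak: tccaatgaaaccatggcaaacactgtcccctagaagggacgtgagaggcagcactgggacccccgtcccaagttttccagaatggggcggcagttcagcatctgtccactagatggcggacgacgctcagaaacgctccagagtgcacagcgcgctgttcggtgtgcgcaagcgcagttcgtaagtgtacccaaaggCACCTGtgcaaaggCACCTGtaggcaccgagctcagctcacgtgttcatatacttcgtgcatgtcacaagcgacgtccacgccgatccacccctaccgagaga
Tcf12 peak: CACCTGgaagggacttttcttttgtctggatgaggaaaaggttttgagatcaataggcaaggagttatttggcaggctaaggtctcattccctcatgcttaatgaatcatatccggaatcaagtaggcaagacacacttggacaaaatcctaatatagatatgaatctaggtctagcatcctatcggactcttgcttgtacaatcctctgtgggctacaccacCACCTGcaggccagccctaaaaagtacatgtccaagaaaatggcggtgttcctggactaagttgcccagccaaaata
Zeb2 peak: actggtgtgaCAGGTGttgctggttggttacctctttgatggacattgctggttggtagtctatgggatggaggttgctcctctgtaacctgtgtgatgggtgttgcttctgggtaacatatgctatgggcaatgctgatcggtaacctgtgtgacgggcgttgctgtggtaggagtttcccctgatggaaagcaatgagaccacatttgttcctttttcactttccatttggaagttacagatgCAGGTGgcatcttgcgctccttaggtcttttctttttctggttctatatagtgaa

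The Id1 and Id2 peaks each held 2 CAGCTG and 2 CAGGTG strings, and the annotation placed both in CpG islands. The Id3 peak held 1 CAGCTG and 3 CAGGTG strings, all within the bases printed. In the Tcf3 peak the 2 sites were both CAGGTG, in the same orientation and close together. The 3 sites of the Tcf12 peak and the 3 of the Zeb2 peak were also of the CAGGTG kind, the string that ZEB proteins themselves bind. Peaks with 4 or more of these strings were uncommon in the list, with 1191 of 84243 peaks (1.41%). Among the peaks of the 8 genes there were 3, one at each ID gene, which is 3 of 19 ID peaks (15.8%). No E-protein or ZEB peak held 4. The limit of 4 is the number of strings in the ID peaks shown above, so this contrast is not a separate result. By curated RefSeq the Id3 peak is nearer to the start of Gm42329, a long non-coding RNA gene. A string match is a description of sequence and does not show that a factor was bound.

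Tcf4 and Zeb2 stood high among all genes by the number of peaks, and the ID genes had fewer, although Id3 was above Tcf3. The median gene in the list had 3 peaks, with quartiles of 1 and 5 and a highest value of 89. Tcf4 had 30 peaks, a number reached by 79 of the 19040 genes (0.415%). Zeb2 had 22 peaks, Tcf12 had 17 and Zeb1 had 16. A count of 16 or more was found for 3.56% of genes, so that 4 of the 8 genes fell in that upper group. Tcf3 had 7 peaks and Id3 had 9, numbers reached by 19.6% and 12.8% of genes. Id1 and Id2 had 5 peaks each, a number reached by 31.8% of genes. The 4 genes with the most peaks were also the longest of the 8, with spans of 134 to 343 kb against 1.16 to 24.1 kb for the others. Gene length and peak number therefore cannot be told apart in these counts, and the peaks per length are given gene by gene.

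**Figure D1:**
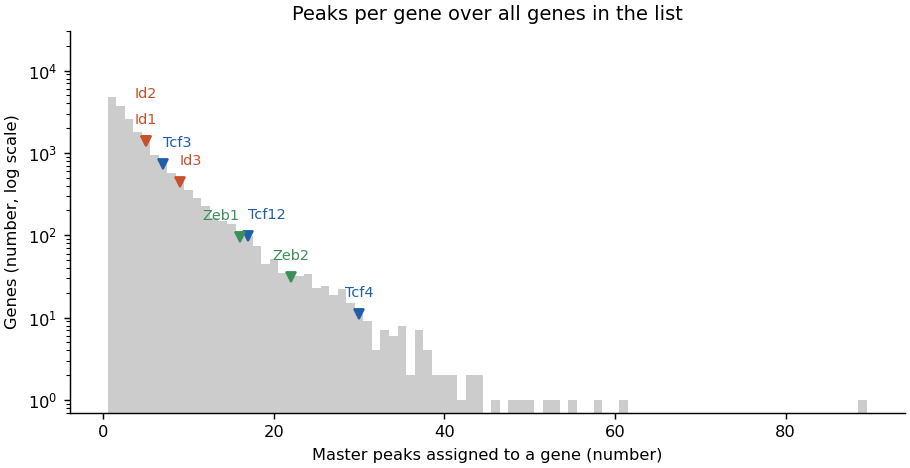
Number of genes (vertical axis, log scale) against the number of master peaks assigned to a gene (horizontal axis) over all 19040 genes. Triangles mark the E-protein genes in blue, the ID genes in red and the ZEB genes in green, with Tcf4 at 30 peaks the farthest right of the 8 and Id1 and Id2 together at 5.

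Tcf3 encodes E12 and E47, the splice forms known together as E2A that B cell development requires. Its 7 peaks lay close together, within 24.5 kb, as 1 unbroken run. A run joined neighbouring peaks of a gene whose centres were close, with gaps of up to 11913 bp joined and gaps of 12568 bp or more left apart among the 8 genes. The promoter peak, chr10:80433792-80434290, was centred 388 bp upstream of the TSS by the deposited distance. Intronic peaks numbered 4 (2 in intron 2 and 2 in intron 3 of the 18 introns in RefSeq), and the other 2 peaks were intergenic, 9543 and 12744 bp upstream. The gene spans chr10:80409541-80433635 and is transcribed from the minus strand. It held 20.8 peaks per 100 kb of span, a density reached by 1.59% of protein-coding genes of at least 20 kb, whose median was 4.22. Its span is only just above that limit, and over the stretch nearest to its start, the measure used for the ID genes below, it held 15.9 per 100 kb, which 10.2% of genes reached. Another peak inside the span was assigned to the neighbouring Uqcr11, a subunit of the respiratory chain, whose TSS was nearer.

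Tcf12 encodes HEB, the E protein best known from thymocyte development, and the gene is known to give a shorter product, HEBAlt, from an internal promoter. Each of its 3 curated RefSeq start sites had a peak centred within 100 bp. The start at 72111819, that of the RefSeq Select transcript, had a peak centred 62 bp upstream (chr9:72111632-72112130). Another start at 72111201 had a peak 65 bp downstream. The internal start at 71896096, which 2 curated transcripts use, had a peak centred 10 bp upstream of it, inside the gene and 215713 bp from the Select start. The outer and the internal promoter differed widely in base composition, as the 250 bases before each start show (RefSeq promoter table, GRCm38, sense strand of the gene, CAGCTG in capitals). G and C made up 76.8% of the bases before the outer start and 34.8% of those before the internal one.
Tcf12 outer promoter, chr9:72111820-72112069, minus strand: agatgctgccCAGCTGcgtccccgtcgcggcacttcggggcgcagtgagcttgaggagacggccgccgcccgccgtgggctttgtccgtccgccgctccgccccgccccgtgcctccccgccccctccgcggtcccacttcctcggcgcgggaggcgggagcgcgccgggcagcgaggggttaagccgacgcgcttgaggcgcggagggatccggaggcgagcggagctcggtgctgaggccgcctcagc
Tcf12 internal promoter, chr9:71896097-71896346, minus strand: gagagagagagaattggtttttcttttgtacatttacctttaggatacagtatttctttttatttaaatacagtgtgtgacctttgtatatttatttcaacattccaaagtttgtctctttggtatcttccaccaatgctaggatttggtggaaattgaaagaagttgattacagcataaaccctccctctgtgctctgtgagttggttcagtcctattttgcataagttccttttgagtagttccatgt

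The remaining Tcf12 peaks were 9 intronic and 5 intergenic ones. Together the 17 peaks spread over 357 kb, and the farthest from a start was an intronic peak 97760 bp away. Inside the 268 kb gene the density was 4.11 peaks per 100 kb, close to the median of 4.22 over long genes. A run of 6 peaks over 22.8 kb began at the outer promoter and continued into the gene. Introns 3 and 5 held 4 peaks each and intron 8 held 2, one of them the internal promoter peak. The intergenic peak 80456 bp upstream held 3 CAGGTG strings, the most of any Tcf12 peak.

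Tcf4 encodes E2-2, the E protein that plasmacytoid dendritic cells need. It carried the largest number of peaks of the 8 genes, and they lay almost wholly inside the gene. RefSeq places Tcf4 on the plus strand of chromosome 18 from 69344492 to 69687967, and 27 of its 30 peaks were intronic. The deposited promoter peak was centred 133 bp upstream of the first start, whereas the other 2 curated starts, at 69345721 and 69346160, had no centre within 500 bp (1116 and 677 bp to the nearest). The intronic peaks were spread unevenly. Intron 8 held 11 peaks and intron 3 held 7, introns 5 and 6 held 4 each and intron 1 held 1, out of 19 introns in the RefSeq transcript used. The largest run, of 9 peaks over 22.9 kb, lay from 224311 to 247180 bp downstream of a start. By the deposited distance 20 of the 30 peaks lay more than 100 kb from a start, with the farthest at 268076 bp. By the Tcf4 transcript starts of GENCODE M21, a larger annotation, no intronic peak was farther than 31321 bp from one. A further 7 peaks inside the gene, in introns 11 and 15, were assigned to Ccdc68, the next gene downstream, which brings the peaks centred in the gene to 34. At 9.90 peaks per 100 kb the gene was denser than the median long gene, and 16.8% of long genes reached this value. Over the stretch nearest to its starts it held 6.63 per 100 kb, which 38.3% of genes reached.

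Across the 3 E-protein genes, accessible regions were mostly intronic. Introns held 40 of the 54 peaks (74.1%, 95% Wilson interval 61.1 to 83.9%), against 41.5% of all peaks. Intergenic peaks were 9 (16.7%, 9.02 to 28.7%), against 37.6% of all peaks, and promoter peaks, those centred within 500 bp of a TSS, were 5 (9.26%, 4.02 to 19.9%), against 15.6%. Tcf4 alone gave 27 of the 40 intronic peaks, so the class value is largely that of 1 gene. These intervals cover counting error only, and the peaks of a gene are not replicates. Runs of 3 or more peaks took in 32 of the 54 peaks (59.3%), near the 54.1% of all peaks. The value of all peaks includes genes with fewer than 3 peaks, which cannot form a run, whereas each of the 8 genes had 5 or more. The comparison of runs is therefore not between genes of like peak number, here and for the classes below. Over the whole list, 64.5% of genes with a peak had a promoter peak, and all 8 genes here had one. This value too takes in genes with fewer peaks than any of the 8, and several of the 8 have more than 1 curated start.

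**Figure D2:**
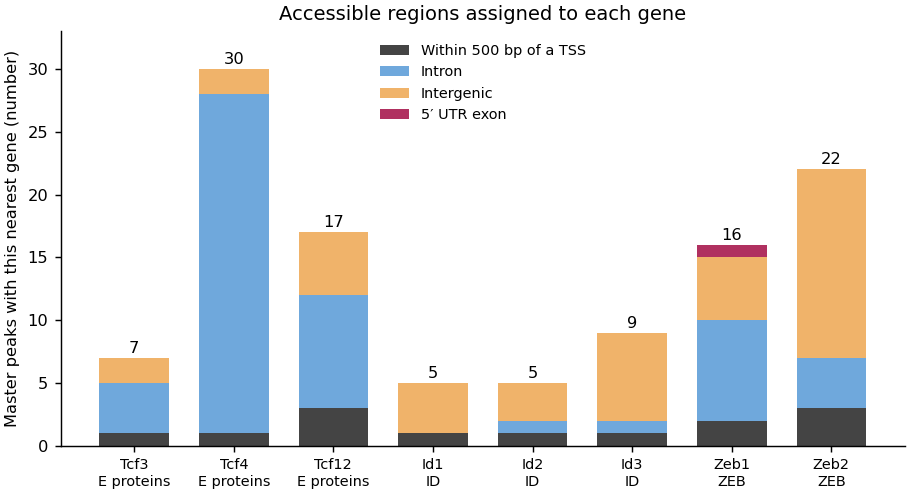
Number of master peaks per gene (vertical axis), split by position: within 500 bp of a TSS, intron, intergenic or 5′ untranslated exon. Tcf4 is almost wholly intronic (27 of 30), Zeb2 (15 of 22) and Id3 (7 of 9) are mostly intergenic, and each gene has 1 to 3 promoter peaks.

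The ID genes are short, and all but 1 of their peaks lay outside the genes. The exception was a peak in intron 2 of Id3. Of 19 ID peaks, 14 were intergenic (73.7%, 51.2 to 88.2%, against 37.6% of all peaks), 3 were promoter peaks and 2 were intronic, and none was more than 100 kb from a TSS. The median deposited distance from a TSS was 5552 bp, against 59552 bp for E-protein peaks, 75333 bp for ZEB peaks and 16023 bp for all peaks. Each ID gene had a single promoter peak close to its only curated start: 52 bp upstream at Id1, 126 bp upstream at Id2 and 43 bp upstream at Id3. Runs of 3 or more took in 17 of the 19 peaks (89.5%, 68.6 to 97.1%), against 54.1% of all peaks, a value that also takes in genes with too few peaks for a run. Only 2 peaks lay apart from a run, and both belonged to Id2.

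Id1 is a target of BMP signalling in many cells. Its 5 peaks formed 1 run of 18.5 kb of chromosome 2, with 3 peaks upstream, at 52, 1052 and 12167 bp, and 2 downstream, at 5552 and 6340 bp. The gene itself spans 1.16 kb, from 152736251 to 152737410 on the plus strand. Counted over the stretch in which the Id1 start is the nearest one, the density was 14.9 peaks per 100 kb, which 11.7% of genes reached. The median over genes was 4.63.

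Id2, which innate lymphoid and natural killer cells need, had 3 peaks next to it and 2 far downstream. On the minus strand of chromosome 12 the gene spans 25093799 to 25096092. The near peaks lay 2798 and 126 bp upstream and 3614 bp downstream. The far ones lay 33654 and 41346 bp downstream, and the farthest was inside intron 31 of Kidins220, a neighbour that encodes a membrane scaffold. Over the stretch nearest to the Id2 start the density was 6.48 peaks per 100 kb, which 39.2% of genes reached. On the upstream side the neighbouring gene was Gm17746, a long non-coding RNA gene 33.1 kb away that was the nearest gene of 52 peaks. The next coding gene on that side, Rnf144a, lay 1211 kb away. The Id2 count therefore depended on how peaks are shared out in this stretch, and it was 68 under the basal plus extension rule, which gives peaks only to coding genes. The sequence before the Id2 start held 1 CAGCTG string, in capitals (RefSeq promoter table, GRCm38, sense strand), and is shown because it was the only listed ID promoter with an E-box string of either kind.
Id2 promoter, chr12:25096093-25096342, minus strand: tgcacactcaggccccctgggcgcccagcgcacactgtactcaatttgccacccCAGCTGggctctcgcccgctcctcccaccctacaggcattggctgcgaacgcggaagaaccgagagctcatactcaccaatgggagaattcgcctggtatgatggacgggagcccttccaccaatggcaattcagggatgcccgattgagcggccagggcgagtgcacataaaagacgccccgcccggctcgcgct

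Id3, the ID gene most tied to lymphocyte development, had more peaks than Id1 and Id2, and most lay upstream. Its 9 peaks spanned 47.3 kb of chromosome 4, with 7 upstream of the TSS and 2 downstream, at 974 and 4034 bp. The upstream peaks lay at 43, 3389, 15957, 20553, 31294, 37766 and 43218 bp, and the outer 5 formed a run of 27.3 kb. By the curated RefSeq annotation 6 of the 7 upstream peaks were nearer to the start of Gm42329, a long non-coding RNA gene that begins between them and Id3, which leaves 3 peaks to Id3. All 5 peaks of the outer run held a CAGCTG or CAGGTG string, and the 20553 bp peak was the only one of the 5 with no CAGGTG. The peaks 31294 and 15957 bp upstream held 3 CAGGTG strings each.

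**Figure D3:**
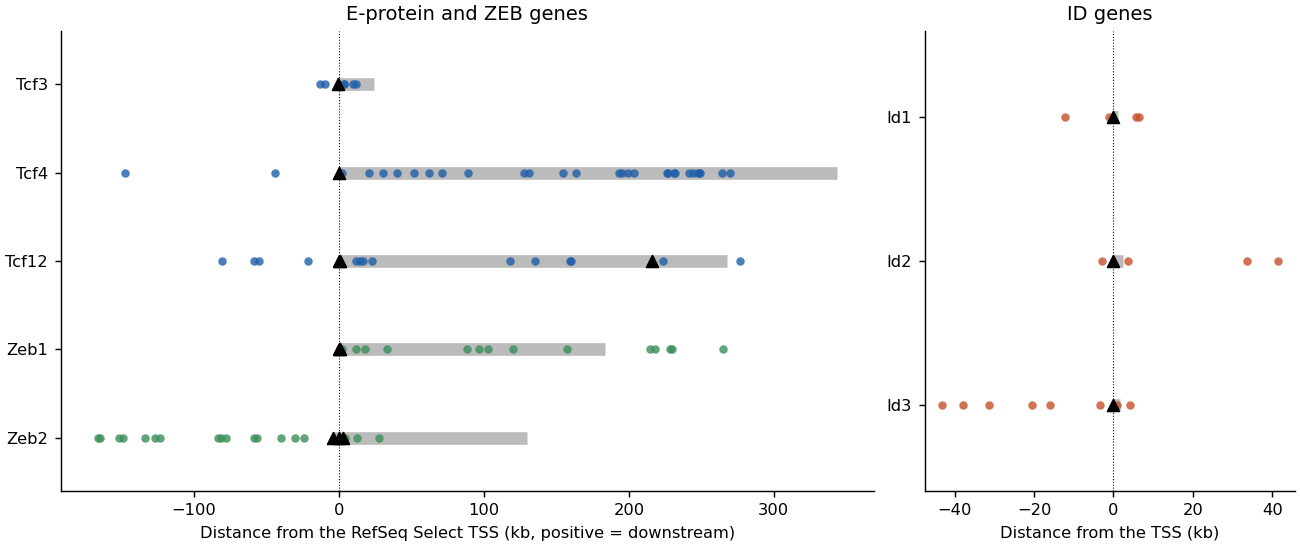
Position of each peak centre (points) relative to the RefSeq Select TSS of its gene, in kb with positive values downstream. Grey bars are gene spans and black triangles are peaks within 500 bp of any TSS. Of the 30 peaks named for Tcf4, 27 lie inside its 343 kb span, the last of them 269744 bp from the Select TSS. Peaks farther along the gene carry another gene name and are not drawn. 15 peaks of Zeb2 lie upstream of the gene, and all ID peaks lie within 43218 bp of the start.

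Of the 38 ZEB peaks, 20 were intergenic (52.6%, 37.3 to 67.5%, against 37.6% of all peaks), 12 intronic (31.6%, 19.1 to 47.5%, against 41.5%) and 5 promoter peaks (13.2%, 5.75 to 27.3%, against 15.6%). Each interval includes the value of all peaks. Zeb2 gave 15 of the intergenic peaks and Zeb1 gave 5. Peaks more than 100 kb from a TSS were 15 of 38, against 20 of 54 for E proteins and 0 of 19 for ID genes. Among all peaks 10.9% were so far away. These shares use the deposited distance and depend on the starts it knows. By GENCODE M21 starts of the same gene, intronic Tcf4 peaks lay at most 31321 bp from a start. The farthest Zeb1 peak then lay 125471 bp away and the farthest Zeb2 peak 162255 bp. The GENCODE value over all peaks was not computed. Runs of 3 or more held 27 of the ZEB peaks (71.1%, 55.2 to 83.0%), against 54.1% of all peaks, with the same limit on this comparison.

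Zeb2 is known to be required in several myeloid and dendritic lineages, and its upstream flank holds distal enhancers that have been studied there. Its peaks lay mostly in that flank. The gene spans chr2:44983512-45117442 on the minus strand, and 15 of its 22 peaks were upstream of this span, from 19601 to 162208 bp from the nearest TSS. The next RefSeq gene on that side that does not overlap Zeb2 lay 579 kb away. The upstream peaks fell into small groups of up to 3. A separate run of 6 peaks over 16.4 kb covered the start region, and 6 of the 7 curated starts had a peak centred within 500 bp. Only the start of a non-coding transcript, at 45110733, was farther, at 549 bp. Another 5 peaks in intron 2 were assigned to Mir5129, a microRNA gene, so that 12 peaks were centred in the gene in all (8.96 per 100 kb, reached by 20.9% of long genes). Over the stretch nearest to the Zeb2 starts the density was 6.50 per 100 kb, which 39.1% of genes reached. The peak shown above, 147473 bp upstream, was one of 3 ZEB peaks with 3 E-box strings of the CAGGTG or CAGCTG kinds.

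Zeb1, which shares its binding sites with Zeb2, had peaks both inside and beyond the gene. It lies on the plus strand of chromosome 18 from 5591860 to 5775468, with 10 peaks centred inside and 5 downstream of its end, from 213871 to 263905 bp from a TSS. Both curated starts had a peak within 500 bp, 172 bp upstream of the first and 118 bp downstream of the second. Of the intragenic peaks 7 were in intron 1, and 1 overlapped the 5′ untranslated exon. The density in the gene was 5.45 peaks per 100 kb, and 39.4% of long genes reached it. Over the stretch nearest to the Zeb1 starts it was 3.99 per 100 kb, which 54.3% of genes reached and which is below the median of 4.63. The promoter peak 172 bp upstream held 3 CAGGTG strings, and it was the only one of the 13 promoter peaks of the 8 genes with that string.

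E-box strings were then counted in every peak. Any CANNTG was nearly universal in peaks of this width, at 91.6% of all peaks, 48 of 54 E-protein peaks, 17 of 19 ID peaks and 37 of 38 ZEB peaks, and it does not separate the classes. CAGCTG, the string of E-protein dimers, was in 29.8% of all peaks. It was in 15 of 54 E-protein peaks (27.8%, 17.6 to 40.9%), 9 of 19 ID peaks (47.4%, 27.3 to 68.3%) and 15 of 38 ZEB peaks (39.5%, 25.6 to 55.3%). Each of these intervals includes the value of all peaks. CAGGTG, bound by E proteins and ZEB proteins alike, was in 32.6% of all peaks. It was in 15 E-protein peaks (27.8%, 17.6 to 40.9%), 10 ID peaks (52.6%, 31.7 to 72.7%) and 13 ZEB peaks (34.2%, 21.2 to 50.1%). Either string was in 51.9% of all peaks, 27 E-protein peaks (37.1 to 62.9%), 13 ID peaks (68.4%, 46.0 to 84.6%) and 25 ZEB peaks (65.8%, 49.9 to 78.8%). The ID share was the highest of the classes for both strings, but in whole peaks its interval overlaps those of the other classes and includes the value of all peaks. In 2 narrower counts it did not include it. Outside promoters CAGGTG was in 62.5% of ID peaks (38.6 to 81.5%), against 32.9% of all non-promoter peaks. In the central 200 bp CAGCTG was in 36.8% of ID peaks (19.1 to 59.0%), against 16.7% of all peaks. The other count of each string did include it. CAGCTG outside promoters was in 8 of 16 ID peaks (28 to 72%), against 30.4% of all non-promoter peaks. CAGGTG in the central 200 bp was in 26.3% of ID peaks (11.8 to 48.8%), against 15.3% of all peaks.

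Within the classes the genes differed in the same measure. An E-box string of either kind was in 8 of 9 Id3 peaks, 3 of 5 Id2 peaks and 2 of 5 Id1 peaks, so that Id3 gave most of the ID value. It was in 13 of 16 Zeb1 peaks and 12 of 22 Zeb2 peaks, and in 10 of 17 Tcf12 peaks, 13 of 30 Tcf4 peaks and 4 of 7 Tcf3 peaks. The 6 Id3 peaks that are nearer to Gm42329 by curated RefSeq all held one. Without them CAGCTG was in 38.5% and CAGGTG in 46.2% of ID peaks, against 29.8% and 32.6% of all peaks. The raised ID shares thus rest in part on peaks whose gene depends on the annotation. With promoter peaks left out, the ID value was 12 of 16 peaks (50.5 to 89.8%), against 52.5% of all non-promoter peaks. The mean number of both strings per peak was 1.47 at ID genes, 0.667 at E-protein genes, 0.921 at ZEB genes and 0.780 over all peaks. The 45 CAGCTG sites in the peaks of the 8 genes had a median distance of 88.5 bp from the peak centre, and the 54 CAGGTG sites one of 115.5 bp.

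**Figure D4:**
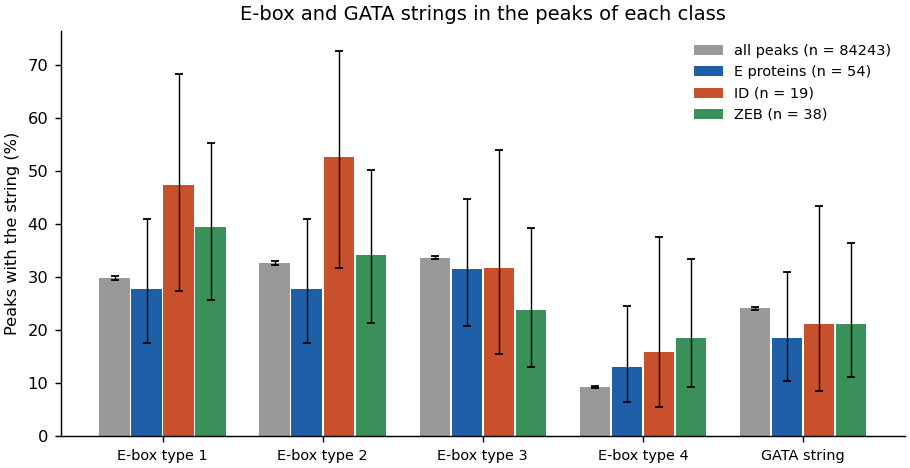
Share of peaks (vertical axis, %) that hold a string, for all 84243 peaks and for the peaks of each class; bars are shares and error bars 95% Wilson intervals. E-box type 1 is CAGCTG, type 2 is CAGGTG, type 3 is CAGATG, type 4 is CACGTG and the GATA string is AGATAA. The ID bars are the highest for types 1 and 2, with intervals from 27.3 to 68.3% and from 31.7 to 72.7%.

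Strings of other blood factors were counted beside them. CAGATG, an E-box that TAL1 with an E protein can bind, was in 33.6% of all peaks and in 17 E-protein, 6 ID and 9 ZEB peaks (31.5%, 31.6% and 23.7%). CACGTG, the E-box of the MYC and USF kind, was in 9.26% of all peaks and in 7, 3 and 7 peaks (13.0%, 15.8% and 18.4%). The GATA string AGATAA was in 24.1% of all peaks and in 10, 4 and 8 (18.5%, 21.1% and 21.1%). The RUNX string AACCACA was in 16.1% of all peaks and in 5, 2 and 3 (9.26%, 10.5% and 7.89%). The PU.1 string GAGGAAGT was in 9.39% of all peaks and in 6, 1 and 2, and the C/EBP palindrome TTGCGCAA, in 0.157% of all peaks, was in none. The IRF string was in 7.38% of all peaks and in 8 E-protein peaks (14.8%, 7.70 to 26.6%), 1 ID peak and 4 ZEB peaks. Over all 111 peaks CACGTG was in 17 (15.3%, 9.79 to 23.2%) and AACCACA in 10 (9.01%, 4.97 to 15.8%). These intervals do not include the values of all peaks, which CACGTG exceeded and AACCACA fell short of. Outside promoters CACGTG was also above, at 15.3% against 8.42%. In the central 200 bp it was not set apart, at 5.41% (2.5 to 11.3%) against 4.73%. AACCACA stayed below there, with an upper limit of 8.9% against 9.86%. The IRF string was there in 1 E-protein peak (1.85%), against 3.16% of all peaks. No allowance was made for the number of strings and groups compared.

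The AP-1 string TGACTCA was also above its value over all peaks at the E-protein genes. It was in 12 of 54 E-protein peaks (22.2%, 13.2 to 34.9%), against 10.8% of all peaks, 1 of 19 ID peaks and 5 of 38 ZEB peaks. Tcf4 gave 9 of the 12, Tcf12 gave 2 and Tcf3 gave 1, so this was largely a feature of the Tcf4 peaks. CTCF strings, in 7.68% of all peaks, were in 4 E-protein peaks, 2 of them at Tcf3 and 2 at Tcf4. No ID or ZEB peak held one, which allows shares of up to 16.8% and 9.18% by the Wilson interval. All strings were searched on both strands over the whole width of a peak, and each E-box string named above is a particular case of CANNTG.

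The ID peaks were also the richest in G and C. Their median was 56.1%, with single peaks from 41.3 to 69.9%, against medians of 46.1% at E-protein genes, 46.5% at ZEB genes and 48.9% over all peaks. With promoter peaks left out, the ID median was 55.4%, against 47.7% for all non-promoter peaks. The annotation labelled 4 of 19 ID peaks as CpG islands (21.1%, 8.51 to 43.3%), against 2.21% of all peaks, and none as a repeat, against 15.1% of all peaks. No promoter peak of these genes carried the CpG island label, not even a Tcf12 promoter peak with 74.1% G and C. The CpG island shares may therefore leave out islands at promoters. In G and C content Tcf3, the short E-protein gene, resembled the ID genes, with a median of 55.5%, whereas Tcf4 had 46.4% and Tcf12 had 43.1%.

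The share of peaks with these strings differed with base composition, so the shares were set beside those of all peaks of like composition. Among all peaks, 31.1% of those below 40% G and C held CAGCTG or CAGGTG. The share was 48.9% with 40 to 50% G and C and 62.5% with 50 to 60%, and it was lower again, at 51.0%, above 60%. ID peaks with 40 to 50% held one in 1 of 4 cases, below the value of all peaks. ID peaks with 50 to 60% held one in 8 of 10 cases (80.0%), and those above 60% in 4 of 5, against 51.0% of all peaks in that range. ZEB peaks with 40 to 50% held one in 17 of 24 cases (70.8%) and E-protein peaks in 12 of 25 (48.0%). The part of base composition in the difference between classes was not tested.

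**Figure D5:**
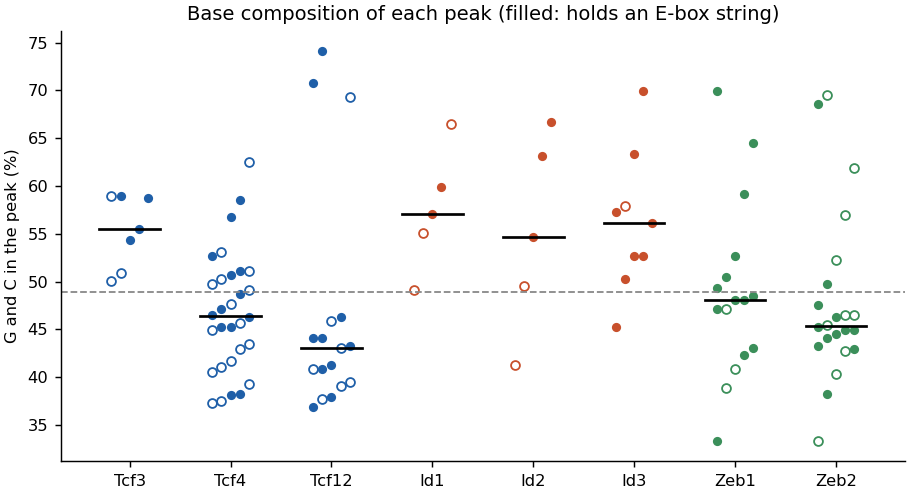
G and C content (vertical axis, %) of each peak of the 8 genes, with filled points for peaks that hold CAGCTG or CAGGTG and open points for the rest. Short black lines are medians per gene and the dashed line is the median of all peaks, 48.9%; the medians of Tcf3 and the 3 ID genes lie above it and those of Tcf4, Tcf12, Zeb1 and Zeb2 below.

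The start sites of the 8 genes were in accessible chromatin more often than not. Of their 19 curated starts, 16 had a peak centre within 500 bp, against 51.9% of 31647 curated starts over all genes. The other 3 were 2 starts of Tcf4 and 1 of Zeb2. The starts are not independent, since neighbouring ones can share a peak. The 16 starts fell on 13 promoter peaks, and 7 of the 19 starts belonged to Zeb2. In the 300-base promoter windows of the RefSeq table, CAGCTG was in 16.3% and CAGGTG in 20.2% of 32851 promoters, and among the promoters listed there for Tcf3, Tcf12, Id2, Id3 and Zeb2 CAGCTG was found at Id2 and at the outer Tcf12 start and CAGGTG at none. These counts do not cover Id1, Tcf4 and Zeb1.

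Genes that work with these factors were compared by the same counts. Of 20 partners and relatives, which include the dimer partners TAL1 and LYL1, the co-factors LMO2 and LDB1, the SNAIL repressors and the CtBP co-repressors, all had a peak and 16 had a promoter peak. They had 2 to 18 peaks with a median of 6.5. Over all genes with a peak, the median was 3 and 64.5% had a promoter peak. Cbfa2t3, the co-repressor ETO2, had the most with 18, followed by Lmo2 with 14 and Lyl1 with 12. Id4, the ID gene that is not among the 3 above, had 2 and no promoter peak, and Ascl2, Bhlhe40 and Snai2 had 2 as well. Of 13 lymphoid genes known as E-protein targets, 11 had a peak and 9 a promoter peak. Their median was 3 peaks with the genes without a peak counted, the same as the median of all genes with a peak. Foxo1 had 20, Ebf1 18 and Il7r 16, whereas the pre-T cell receptor gene Ptcra and the surrogate light chain gene Vpreb1 were the nearest gene of no peak. Of the 5 genes of the microRNA-200 family, which is known to target ZEB messages, Mir200c had 3 peaks and Mir141 had 1, none at a promoter, and Mir200a, Mir200b and Mir429 had none.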

How the data were processed

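ATAC-seq was performed by the authors on 12 samples, 2 replicates of each of 6 sorted cell types. Reads were mapped to mm10 and peaks called by the authors with the pipeline of the ENCODE consortium. The authors joined the optimal, reproducible peaks of the 6 cell types into 1 list, from which chromVAR kept those without overlap, and HOMER (4.10.2 in the submitters' processing notes) named the nearest gene. Multimapping reads were left out, which can hide open chromatin in repeats. Peak positions and TSS distances were taken unchanged, in bp, from the deposited list. The peak score deposited by the authors was 0 throughout and was not used. The list holds 0 columns of values per sample, so depth is unknown and no test was made.

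The members and the gene lists were chosen with earlier results of these data known. Peaks were assigned by the deposited nearest gene. Start sites, introns and sequence came from curated RefSeq transcripts of GRCm38, after chromosome names and lengths had been checked. The deposited distance was within 2 bp of the nearest curated RefSeq start for 87.4% of peaks. Strings were searched on both strands. Shares refer to runs of 3 or more peaks. Densities use gene spans for genes of at least 20 kb, and for ID genes the stretch nearest to their start. Intron numbers follow the RefSeq transcript over the peak.

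All 8 genes were named, with their promoter peaks, nearest and farthest peaks, largest run and the peak richest in CAGCTG and CAGGTG. Members of the gene lists were named for the most and the fewest peaks. A comparison of the proteins was planned and is not reported here. Alternatives concerned peak assignment, promoter width and source, annotation source, run gap, density and search window. The searches were tested on simulated data. The tools were pandas 2.3.3 with numpy 2.4.6, scipy 1.17.1 for intervals and matplotlib 3.10.9 for plots, under Python 3.11.15.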

Additional observations from a re-analysis of the deposited data

How the results depend on the processing

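The counts depended most on how a peak is given to a gene. Against 54 E-protein, 19 ID and 38 ZEB peaks, the basal plus extension rule (2 kb upstream and 1 kb downstream, extended up to 1 Mb towards the next coding gene) gave 105, 92 and 77. Counting only centres inside the gene gave 1 ID and 22 ZEB peaks, and counting only peaks within 100 kb of a TSS gave 34 E-protein and 23 ZEB peaks. With 1 RefSeq start per gene ZEB peaks were 18, since 15 of the 16 Zeb1 peaks then went to the antisense gene Gm10125, and 5 Zeb2 peaks went to Zeb2os. With all curated RefSeq starts 105 of the 111 peaks kept their gene and the 6 others were Id3 peaks. The 13 promoter peaks became 6 within 100 bp of a TSS (E proteins 3, ZEB 1) and 21 by GENCODE M21 transcript starts (E proteins 11), an alternative chosen after seeing the data. Peaks in runs were 19 (E proteins), 7 (ID) and 11 (ZEB) with a gap of 5 kb, and 49 for E proteins with 25 kb. In the central 200 bp of each peak CAGCTG was in 16.7% of E-protein and 23.7% of ZEB peaks, and CAGGTG in 14.8% of E-protein, 26.3% of ID and 18.4% of ZEB peaks, against 16.7% and 15.3% of all peaks. The other 42 class values under these alternatives, among them the intronic and intergenic shares and the G and C content, stayed close to those reported, within 1.5 times for counts, the Wilson interval for shares or the SD between peaks for G and C content. No paired analysis was possible because the list holds no values per sample and no result comes from a test. Depth, replicate error and cell type are unknown for every peak.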

Other observations

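The GENCODE annotation, which lists more transcripts than curated RefSeq, placed starts at several peaks inside the genes that are not promoter peaks above. Of the peaks of the 8 genes that were not promoter peaks by the deposited distance, 9 were centred within 500 bp of a GENCODE M21 transcript start. They were 8 intronic peaks and 1 in a 5′ untranslated exon of Zeb1. Tcf4 had 5 of these, Zeb1 had 2 and Tcf3 and Id3 had 1 each. Tcf4, whose gene is known for many alternative first exons, has 62 transcripts with 58 different starts in that annotation, against 3 curated starts in RefSeq. Tcf12 and Zeb2 gained none, although GENCODE gives them 20 and 29 starts. Whether any of these starts was used in the sorted cells cannot be told from the list.

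Genes next to the 8 were the nearest gene of some of the peaks that lie in or beside them. Of the 34 peaks centred in Tcf4, 7 carried the name of Ccdc68, from 250037 to 280766 bp upstream of the Ccdc68 start, and the peak at 259100 bp held 3 CAGCTG or CAGGTG strings, more than any peak named for Tcf4. Of the 12 centred in Zeb2, 5 carried the name of Mir5129, all in intron 2 of Zeb2 and 17937 to 35169 bp from the microRNA gene.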
